A study of Mus musculus with 8 samples.

Results

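The NF-κB factors and feedback inhibitors were followed as 10 genes. They were the 5 subunits of the family (Rela, Relb, Rel, Nfkb1 and Nfkb2), the cytoplasmic inhibitors Nfkbia and Nfkbie, the nuclear IκB proteins Nfkbiz and Bcl3, and the ubiquitin-editing enzyme Tnfaip3. A non-control probe counted as a member where its accession belonged to 1 of these genes in the RefSeq gene table of the mouse (GRCm38.p6). By this rule 10 of 10 genes were found on 12 probes, out of 20284 genes and 26762 probes named on the array. All 10 passed the filter on dim probes, which left 14104 genes to test, and Nfkb1 and Relb had 2 probes each.

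RNA was measured in granulocyte progenitors (GPs), bone marrow cells on the way to granulocytes, that had been sorted for the presence (Flt3+) or absence (Flt3-) of the cytokine receptor Flt3. The 4 groups were Flt3+ GPs of mice labelled Irf8KO, Flt3- GPs of mice labelled Irf8KO, Flt3+ GPs of wild-type mice and Flt3- GPs of wild-type mice. Irf8KO stands for deficiency of the transcription factor Irf8, a regulator of monocyte and dendritic cell development, and the labels call the cells primary isolates. Each group had 2 one-colour Agilent arrays, 1 from each of 2 independent experiments. The labels give no strain, age or sex, no number of animals per sample and no description of the Irf8 allele. Nothing states that the samples came from separate animals, and p-values therefore cover the spread of these samples alone, part of which may be technical.

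Every array had 59305 non-control spots. The share well above background was 54.9 to 60.1%, and 0 spots were saturated. Arrays of one group correlated at r = 0.9958 to 0.9976 across genes, which are not independent replicates, and the number of arrays limits the precision. The 8 arrays shared 1 slide, on which rows separated the genotypes and columns separated the populations, so slide position cannot be told apart from either. The 1 Irf8 probe gave more signal on arrays labelled Irf8KO than on wild-type arrays, by 0.84 log2 in Flt3+ GPs and by 0.72 log2 in Flt3- GPs. No source used here says whether the allele removes the sequence this probe binds. The probe is therefore no check of the labels, on which every direction between genotypes rests. Flt3 RNA followed the sort, with log2 signals of 6.29 and 6.30 in Irf8KO Flt3+, 2.71 and 2.68 in Irf8KO Flt3-, 6.21 and 6.21 in wild-type Flt3+ and 1.69 and 1.66 in wild-type Flt3- cells. It was 1.02 log2 higher in Irf8KO than in wild-type Flt3- GPs (adjusted p = 7.81e-05 by limma). In Flt3+ GPs the genotypes differed by 0.08 log2 (adjusted p = 0.156, not called). The difference in Flt3+ GPs minus that in Flt3- GPs was -0.94 log2 (adjusted p = 0.000781). The part of the Flt3 level in the members' differences was not tested. All 12 granulocyte progenitor markers, among them Elane, Mpo and Prtn3, were well above background on at least 1 array. So were all 10 B cell markers, and presence alone therefore does not identify the cells.

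NF-κB is a family of dimeric transcription factors that wait in the cytoplasm, bound to inhibitors of the IκB type, until a receptor for a cytokine or a microbial product activates the IκB kinase (IKK). The kinase marks the inhibitor for destruction, and the freed dimer enters the nucleus and switches on target genes. Among the described targets are the inhibitors themselves (Nfkbia, Nfkbie, Tnfaip3), which end the response, and the subunits Relb and Nfkb2 of the slower non-canonical branch. In myeloid cells the pathway is known for inflammatory gene induction and for survival.

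RefSeq held promoter windows (GRCm38.p6) for 7 of the 10 members. Nfkb1, Nfkbiz and Relb were not matched. The windows were searched on both strands for the NF-κB consensus motif, and 5 members held it in the 250 bases before a start (Nfkb2, Rel, Nfkbia, Nfkbie and Tnfaip3). Of the 11298 tested genes with a window 602, or 5.33%, held it there. The sequences of 4 members are shown because feedback of the pathway on its own genes is described to act through such motifs. The match is in capitals, and each sequence ends at the base before the start. The windows are chr12:55492648-55492897 (minus strand) for Nfkbia, chr17:45555450-45555699 (plus strand) for Nfkbie, chr19:46304487-46304736 (plus strand) for Nfkb2 and chr10:19015411-19015660 (minus strand) for Tnfaip3.
Nfkbia: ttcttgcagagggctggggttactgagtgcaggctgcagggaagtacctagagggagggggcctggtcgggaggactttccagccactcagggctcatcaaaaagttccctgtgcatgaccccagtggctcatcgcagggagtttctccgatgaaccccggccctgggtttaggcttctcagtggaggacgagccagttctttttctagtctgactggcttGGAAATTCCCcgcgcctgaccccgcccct
Nfkbie: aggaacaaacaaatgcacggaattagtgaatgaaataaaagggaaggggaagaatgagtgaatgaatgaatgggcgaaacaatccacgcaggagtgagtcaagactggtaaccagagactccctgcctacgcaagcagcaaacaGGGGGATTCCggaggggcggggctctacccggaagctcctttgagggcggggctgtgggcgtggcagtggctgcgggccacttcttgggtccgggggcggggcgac
Nfkb2: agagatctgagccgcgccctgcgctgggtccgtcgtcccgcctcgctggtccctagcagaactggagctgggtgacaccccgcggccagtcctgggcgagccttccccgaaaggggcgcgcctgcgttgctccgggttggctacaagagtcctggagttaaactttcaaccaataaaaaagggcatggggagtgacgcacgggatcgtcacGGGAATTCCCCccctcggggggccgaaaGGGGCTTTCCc
Tnfaip3: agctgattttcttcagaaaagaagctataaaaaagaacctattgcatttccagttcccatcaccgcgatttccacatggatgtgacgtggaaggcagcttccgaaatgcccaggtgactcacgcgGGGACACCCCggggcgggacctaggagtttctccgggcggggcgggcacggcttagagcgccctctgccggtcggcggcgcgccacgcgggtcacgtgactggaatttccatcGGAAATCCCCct
The match of Nfkbia began 29 bases before the start and that of Nfkbie 106 bases before it. Nfkb2 had overlapping matches from 39 and 38 bases before this start and a separate one from 11 bases before it, and 2 other starts of the gene held 1 further match each before the start. Tnfaip3 had matches from 125 and 12 bases before this start and none before its other start. The one match of Bcl3 lay after its start and Rela had none. A match is only a string of letters in this window, and binding was not measured here.

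Levels are given on a log2 scale on which 0 is the signal at the 75th percentile of an array, for experiments 1 and 2 in turn. Rela, the main activating subunit (chr19:5637442-5648134, GRCm38.p6), read 4.71 and 4.75 in Flt3+ and 4.66 and 4.68 in Flt3- GPs labelled Irf8KO, against 4.73 and 4.79 in wild-type Flt3+ and 4.57 and 4.59 in wild-type Flt3- GPs. Its group means spanned 0.18 log2, with wild-type Flt3- GPs lowest and the 2 Flt3+ groups overlapping. Nfkb1, the gene of the p105 precursor and the p50 subunit (chr3:135584655-135691969), read 1.75 and 1.66 in Flt3+ and 1.57 and 1.75 in Flt3- GPs labelled Irf8KO, against 1.42 and 1.56 in wild-type Flt3+ and 1.62 and 1.63 in wild-type Flt3- GPs. The second probe of Nfkb1 ordered the groups differently, and neither probe was called in any comparison when each was fitted on its own, a setting added after the data were seen.

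Nfkb2, the gene of the p100 precursor and the p52 subunit (chr19:46300994-46312400), read 0.68 and 0.66 in Flt3+ and 0.55 and 0.61 in Flt3- GPs labelled Irf8KO, against 0.59 and 0.54 in wild-type Flt3+ and 0.23 and 0.21 in wild-type Flt3- GPs. Wild-type Flt3- GPs stood below the other 3 groups, and the Flt3- GPs labelled Irf8KO overlapped with the wild-type Flt3+ GPs. Relb, the partner of p52 in the non-canonical branch (chr7:19606217-19629438), read -0.68 and -0.64 in Flt3+ and -1.54 and -1.53 in Flt3- GPs labelled Irf8KO, against -0.53 and -0.28 in wild-type Flt3+ and -2.24 and -2.36 in wild-type Flt3- GPs. No 2 groups overlapped, and the order from high to low was wild-type Flt3+, Irf8KO Flt3+, Irf8KO Flt3- and wild-type Flt3-. The second probe of Relb read -1.24 and -1.30 in Flt3+ and -1.96 and -2.00 in Flt3- GPs labelled Irf8KO, against -1.28 and -1.22 in wild-type Flt3+ and -2.66 and -2.81 in wild-type Flt3- GPs. The 2 Flt3+ groups overlapped on this probe, and both probes were called in the same comparisons.

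Rel, the c-Rel subunit known from lymphocytes (chr11:23736847-23770969), was dim and was well above background on 4 of the 8 arrays. It read -4.75 and -5.03 in Flt3+ and -5.75 and -5.22 in Flt3- GPs labelled Irf8KO, against -5.31 and -4.39 in wild-type Flt3+ and -5.62 and -5.01 in wild-type Flt3- GPs. It was above background on both arrays only in the Flt3+ GPs labelled Irf8KO, and neighbouring groups in the order of its levels overlapped. It was not called in any comparison, and its 95% intervals ran from -0.96 to 0.88 log2 between genotypes in Flt3+ GPs and from -1.09 to 0.75 log2 in Flt3- GPs.

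Nfkbia, the gene of IκBα, the inhibitor that is degraded and made anew in each canonical response (chr12:55489409-55492647), read 4.40 and 4.44 in Flt3+ and 4.28 and 4.29 in Flt3- GPs labelled Irf8KO, against 4.25 and 4.24 in wild-type Flt3+ and 3.85 and 3.86 in wild-type Flt3- GPs. No groups overlapped, both groups labelled Irf8KO stood above the wild-type groups, and wild-type Flt3- GPs were lowest. Nfkbie, the gene of IκBε, a slower feedback inhibitor (chr17:45555700-45563169), read 1.48 and 1.31 in Flt3+ and 0.88 and 0.88 in Flt3- GPs labelled Irf8KO, against 1.59 and 1.64 in wild-type Flt3+ and 0.66 and 0.69 in wild-type Flt3- GPs. No groups overlapped here either, and the groups labelled Irf8KO lay between the wild-type populations. Tnfaip3, the gene of A20, which removes activating ubiquitin chains upstream of IKK (chr10:19000910-19015410), read 0.19 and 0.23 in Flt3+ and 0.11 and 0.02 in Flt3- GPs labelled Irf8KO, against 0.26 and 0.32 in wild-type Flt3+ and 0.18 and 0.26 in wild-type Flt3- GPs. The span of its group means was 0.22 log2, and wild-type Flt3- GPs overlapped with both Flt3+ groups.

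Nfkbiz, the gene of IκBζ, a nuclear cofactor of secondary response genes (chr16:55811375-55838954), had the widest span of the 10 members, 2.61 log2 between group means. It read -0.23 and -0.27 in Flt3+ and -1.25 and -1.11 in Flt3- GPs labelled Irf8KO, against 0.42 and 0.47 in wild-type Flt3+ and -2.19 and -2.13 in wild-type Flt3- GPs. The groups did not overlap and stood in the same order as those of Relb. Bcl3, the gene of a nuclear IκB protein that binds p50 and p52 homodimers (chr7:19808462-19822824), read 1.61 and 1.57 in Flt3+ and 1.66 and 1.72 in Flt3- GPs labelled Irf8KO, against 2.33 and 2.38 in wild-type Flt3+ and 1.73 and 1.78 in wild-type Flt3- GPs. The wild-type Flt3+ GPs stood above the other 3 groups, whose arrays lay between 1.57 and 1.78. In such bulk RNA, fewer cells of a kind and less RNA per cell cannot be told apart.

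**Figure D1:**
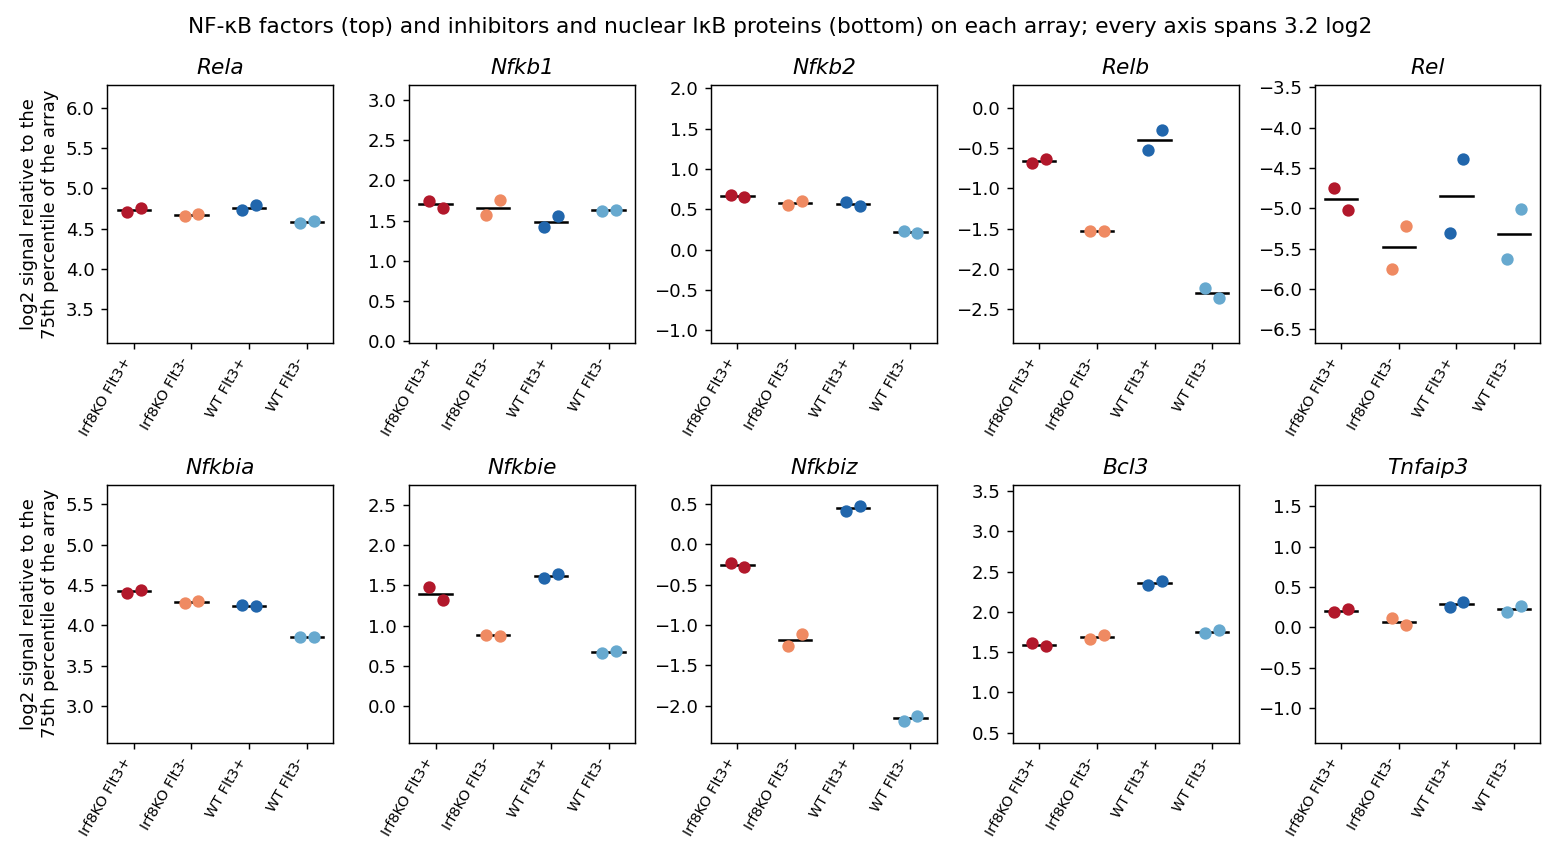
Log2 signal of the 10 members, with 0 at the 75th percentile of an array's signals, 1 point per array, a bar at the mean of each group of 2 arrays, and axes of equal length that start at different levels. Nfkbiz and Relb are highest in wild-type Flt3+ and lowest in wild-type Flt3- GPs, with the groups labelled Irf8KO between them, while Bcl3 stands out in wild-type Flt3+ GPs.

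The comparison of Flt3+ with Flt3- GPs of wild-type mice asked how the 2 progenitor populations differ. Flt3+ GPs had more RNA of 7 of the 10 members, the largest differences being those of Nfkbiz, 6.09-fold higher (2.61 log2, SE 0.062, adjusted p = 2.25e-06 by limma), and Relb, 3.72-fold higher (1.90, SE 0.091, adjusted p = 2.28e-05). Nfkbie was 1.92-fold higher (0.94, SE 0.063, adjusted p = 7.85e-05) and Bcl3 1.52-fold higher (0.60, SE 0.045, adjusted p = 0.000124). Nfkbia (0.39 log2), Nfkb2 (0.34) and Rela (0.18) differed by less but passed the test (adjusted p = 0.000318, 0.000952 and 0.0138). Nfkb1 (-0.14, 95% interval -0.34 to 0.06), Tnfaip3 (0.06, -0.07 to 0.20) and Rel (0.47, -0.45 to 1.39) did not pass.

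Of all genes tested 22.6% were called higher and 39.2% lower in wild-type Flt3+ GPs, against 7 higher and 0 lower of the 10 members by limma, and 0 were lower at an unadjusted p under 0.05 either. The median difference was 0.43 log2 for the members and -0.12 for all genes. With quantile normalization the median of all genes was -0.01, and 4196 genes were called higher and 4122 lower, against 3192 higher and 5534 lower with the 75th percentile. Relative to the median of all genes the differences of the 7 called members were 0.29 to 2.72 log2. At an adjusted p under 0.05 and at least 2-fold, 13% of all genes were called, and Relb and Nfkbiz were the 2 members among them. Rela (0.48 log2) and Nfkbia (0.65) were further apart with quantile normalization. The call of Rela was lost without wild-type Flt3+ array 2 (adjusted p = 0.0515) without wild-type Flt3- array 1 (0.0799) or array 2 (0.0579), with normexp background correction (0.0504) and with the compared groups alone (0.0514).

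Among GPs labelled Irf8KO, Flt3+ cells had more RNA than Flt3- cells of 4 of the 10 members, all of which were also called in wild type. They were Nfkbiz (0.93 log2, SE 0.062, 1.90-fold, adjusted p = 9.91e-05), Relb (0.87, SE 0.091, 1.83-fold, adjusted p = 0.000633), Nfkbie (0.52, SE 0.063, adjusted p = 0.00119) and Nfkbia (0.13, SE 0.037, adjusted p = 0.0323). By limma 0 members were called lower, and 0 were lower at an unadjusted p under 0.05. Of all genes 22.1% were called higher and 23.6% lower at an adjusted p under 0.05. With quantile normalization 3794 genes were higher and 3082 lower, against 3119 and 3335 with the 75th percentile. Bcl3, called in wild type, differed by -0.10 log2 (95% interval -0.21 to 0.01), and Nfkb2 by 0.09 (-0.02 to 0.20). Of all genes 15% were called higher in the Flt3+ cells of both genotypes, against 4 of the 10 members.

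The call of Nfkbia within Irf8KO was lost without either Irf8KO Flt3+ array (adjusted p = 0.082 and 0.151), either Irf8KO Flt3- array (0.106 and 0.0866) or either wild-type Flt3- array (0.0778 each time), without the filter on dim probes (0.082) and with the compared groups alone (0.097). Its difference was 0.20 log2 with quantile normalization. Rela, which did not pass within Irf8KO, differed by 0.13 log2 with quantile normalization and then passed (adjusted p = 0.0279).

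**Figure D2:**
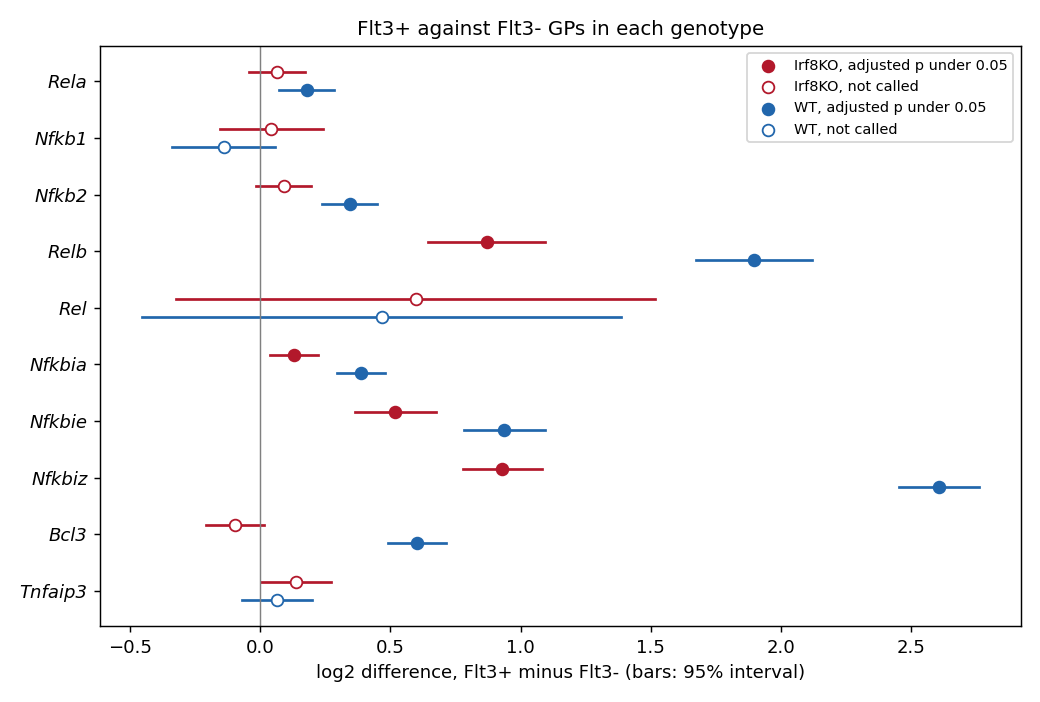
Log2 difference of Flt3+ minus Flt3- GPs for each member in GPs labelled Irf8KO (red) and in wild-type GPs (blue), with 95% intervals and filled points where the adjusted p was under 0.05. For Nfkbiz the difference is 0.93 in Irf8KO and 2.61 in wild type, and for Relb it is 0.87 and 1.90.

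The comparison between genotypes in Flt3+ GPs asked how arrays labelled Irf8KO differ from wild-type arrays in the population that carries Flt3. There 2 members were lower on the arrays labelled Irf8KO. Bcl3 was 1.70-fold lower (-0.77 log2, SE 0.045, adjusted p = 0.000204), and Nfkbiz was 1.62-fold lower (-0.70, SE 0.062, adjusted p = 0.000905). Nfkbia was 1.13-fold higher (0.18, SE 0.037, adjusted p = 0.0194). Of all genes 16.5% were called higher and 12.5% lower, against 1 higher and 2 lower of the 10 members, and the median was -0.06 log2 for the members and 0.04 for all genes. The balance of calls over all genes depended on the scaling, with 1991 higher and 2174 lower with quantile normalization, against 2326 and 1766 with the 75th percentile.

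The other 7 members did not pass in Flt3+ GPs. Nfkbie (-0.22 log2, adjusted p = 0.0508 by limma), Relb (-0.26, 0.0823) and Tnfaip3 (-0.08, 0.317) had lower means than wild type. So had Rela (-0.03) and Rel (-0.04), while those of Nfkb1 (0.22, adjusted p = 0.0964) and Nfkb2 (0.10, 0.13) were higher. Nfkbie passed with quantile normalization (adjusted p = 0.0378), normexp background correction (0.0352), the filter on all 8 arrays (0.0395), the authors' series table (0.0499) and without Irf8KO Flt3+ array 1 (0.0296). Without Irf8KO Flt3+ array 2 the difference of Nfkbie was -0.13 log2 (0.183). Relb passed without wild-type Flt3+ array 1 (adjusted p = 0.0207), while its second probe differed by -0.02. The call of Nfkbia was lost without any 1 of 6 arrays, the Irf8KO Flt3+ arrays (adjusted p = 0.067 and 0.108), the wild-type Flt3+ arrays (0.0532 and 0.0522) and the wild-type Flt3- arrays (0.0529 each), and its difference was 0.11 log2 with quantile normalization (adjusted p = 0.0612) and with normexp background correction (0.221). It was also lost without the filter on dim probes (0.0573) and with the compared groups alone (0.0936). Nfkb1 passed with the mean of its probes (0.16 log2, adjusted p = 0.0465).

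In Flt3- GPs the arrays labelled Irf8KO had more RNA of 5 of the 10 members than wild type. Nfkbiz was 1.97-fold higher (0.98 log2, SE 0.062, adjusted p = 0.000291), Relb 1.70-fold higher (0.77, SE 0.091, adjusted p = 0.00176) and Nfkbia 1.35-fold higher (0.43, SE 0.037, adjusted p = 0.000682). Nfkb2 was 1.28-fold higher (0.36, SE 0.043, adjusted p = 0.00187) and Nfkbie 1.15-fold higher (0.20, SE 0.063, adjusted p = 0.0453). By limma 0 members were called lower, and 1 was lower at an unadjusted p under 0.05, Tnfaip3 (-0.15 log2). Of all genes 16.5% were called higher and 27.2% lower, and the median was 0.14 log2 for the members and -0.03 for all genes. With quantile normalization 2809 genes were higher and 3239 lower, against 2322 and 3837 with the 75th percentile.

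In Flt3- GPs Bcl3 (-0.06 log2, 95% interval -0.18 to 0.05), Rela (0.08, -0.02 to 0.19) and Nfkb1 (0.03, -0.16 to 0.23) did not pass. With quantile normalization Rela differed by 0.23 log2 and passed (adjusted p = 0.00507). The call of Nfkbie was lost without either wild-type Flt3- array (adjusted p = 0.167 and 0.127), either Irf8KO Flt3- array (0.138 and 0.126) or either wild-type Flt3+ array (0.0604 each), with the experiment number as a replicate block (0.0631), with quantile normalization (0.0637), with normexp background correction (0.0526) and without the filter on dim probes (0.0982). With normexp background correction the differences of Nfkbiz (0.63 log2) and Relb (0.50) were smaller and still passed.

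**Figure D3:**
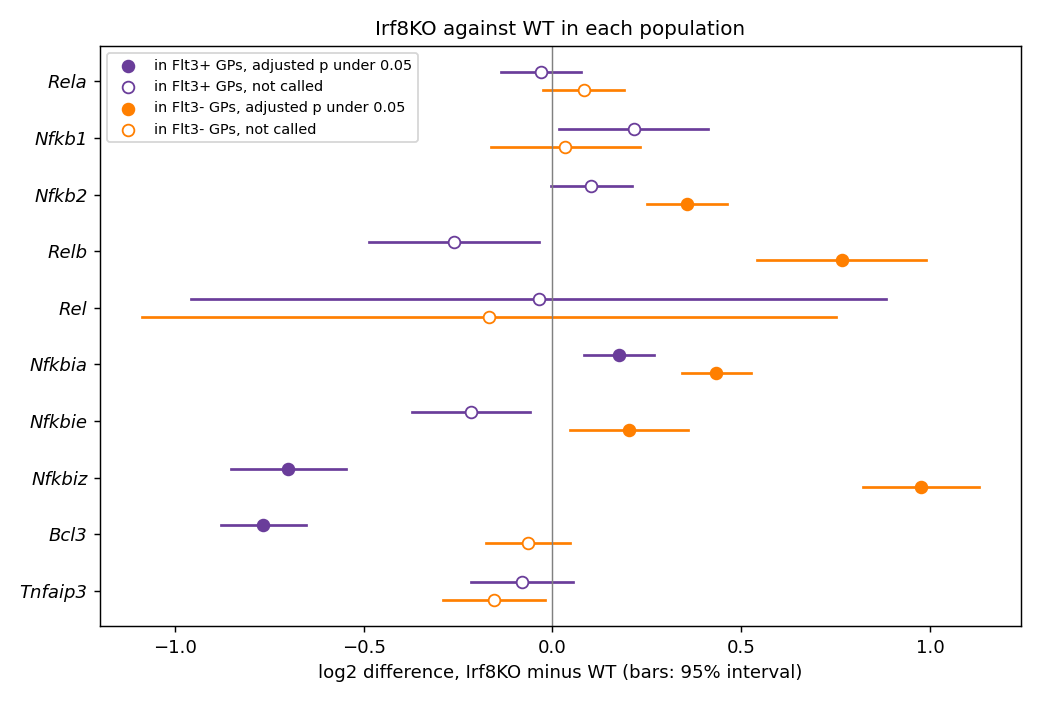
Log2 difference of arrays labelled Irf8KO minus wild-type arrays for each member in Flt3+ GPs (purple) and in Flt3- GPs (orange), with 95% intervals and filled points where the adjusted p was under 0.05. Nfkbiz lies at -0.70 in Flt3+ and 0.98 in Flt3- GPs, and Bcl3 is called in Flt3+ GPs only; their differences between the populations are tested in the text.

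Whether the difference between genotypes itself differed between the populations was tested as an interaction, the difference between Irf8KO and wild type in Flt3+ GPs minus that in Flt3- GPs. It was negative and passed for 6 of the 10 members, against 9.46% of all genes, while 0 members and 21.4% of all genes passed with a positive value. By limma 0 members were positive at an unadjusted p under 0.05 as well. Nfkbiz had the largest value (-1.68 log2, SE 0.087, adjusted p = 0.000653), followed by Relb (-1.03, SE 0.128, adjusted p = 0.00435) and Bcl3 (-0.70, SE 0.064, adjusted p = 0.00213). Nfkbie (-0.42, adjusted p = 0.0191), Nfkbia (-0.26, adjusted p = 0.0168) and Nfkb2 (-0.25, adjusted p = 0.0277) had smaller ones. The second probe of Relb gave -0.77 (adjusted p = 0.00417).

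For these 6 members the same values state that Flt3+ minus Flt3- was smaller on the arrays labelled Irf8KO than on wild-type arrays. Nfkbiz was the 1 member called lower in Flt3+ and higher in Flt3- GPs, a combination met by 1.5% of all genes, and Nfkbia was the 1 member called higher in both, as 6.48% of all genes were. The reverse combination, higher in Flt3+ and lower in Flt3- GPs, was met by 2.89% of all genes and, by limma, by 0 members, also at an unadjusted p under 0.05. The median interaction was -0.26 log2 for the members and 0.07 for all genes. With quantile normalization 1976 genes had a positive and 1870 a negative interaction, against 3023 positive and 1334 negative with the 75th percentile, and 7 members passed. The seventh was Rela (-0.34 log2, adjusted p = 0.00857). The interaction of Relb was -0.68 with normexp background correction, and that of Nfkbia -0.44 with quantile normalization.

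The calls of the 3 smaller interactions were lost without some single arrays, while their values stayed negative. Leaving out each array, the value ran from -0.28 to -0.22 log2 for Nfkb2, from -0.27 to -0.24 for Nfkbia and from -0.50 to -0.33 for Nfkbie. Such fits also had fewer arrays from which to estimate the spread. Without 1 wild-type Flt3- array 3 members passed in place of 6, whichever of the 2 was left out. That of Nfkb2 was lost without wild-type Flt3+ array 1 (adjusted p = 0.0624), wild-type Flt3- array 1 (0.0815) or 2 (0.102), Irf8KO Flt3+ array 1 (0.0713) or 2 (0.0927) and Irf8KO Flt3- array 2 (0.0735). That of Nfkbia was lost without wild-type Flt3- array 1 (0.0714) or 2 (0.0691) and Irf8KO Flt3+ array 1 (0.0618) or 2 (0.0502), and that of Nfkbie without wild-type Flt3- array 1 (0.0674) or 2 (0.0584) and Irf8KO Flt3- array 1 (0.055) or 2 (0.0536). With normexp background correction those of Nfkb2 (0.0655) and Nfkbia (0.079) were lost, and without the filter on dim probes those of Nfkb2 (0.0737), Nfkbia (0.0513) and Nfkbie (0.0511) were lost.

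Other genes of the pathway were read from lists of receptors, adaptors, kinases, inhibitors and target genes. The shares of all genes beside which they stand are 22.6% higher and 39.2% lower between wild-type populations, 16.5% and 12.5% between genotypes in Flt3+ GPs, and for Flt3- GPs 16.5% and 27.2%. Of 22 tested receptors that signal to NF-κB, 6 were higher and 10 lower in wild-type Flt3+ than Flt3- GPs. Tnfrsf13c, the BAFF receptor, was 13-fold higher (3.70 log2) and Il1r1, the interleukin-1 receptor, 12.2-fold higher (3.60), while Il1rl1, the receptor of interleukin-33, was 19.4-fold lower (-4.27). On arrays labelled Irf8KO 10 receptors were higher and 4 lower than wild type in Flt3+ GPs, and 10 higher and 2 lower in Flt3- GPs. Cd14, the co-receptor of lipopolysaccharide, was 2.04-fold higher in Flt3+ GPs (1.03), and Nod2, a sensor of bacterial cell walls, 1.77-fold higher in Flt3- GPs (0.82). Tnfrsf13c was lower in Flt3+ (-1.22) and in Flt3- GPs (-1.49), and so was Il1rl1 (-0.99 and -1.79). Between wild-type populations the shares of receptors, 27.3% higher and 45.5% lower, were near those of all genes. Between genotypes they were 45.5% higher and 18.2% lower in Flt3+ GPs, and 45.5% higher and 9.09% lower in Flt3- GPs.

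Of 25 adaptors and ubiquitin ligases, 7 were higher and 11 lower in wild-type Flt3+ than Flt3- GPs. Traf5 was 2.00-fold higher (1.00 log2), while Card9, the scaffold of C-type lectin signalling, was 2.34-fold lower (-1.22). Between Irf8KO and wild type 5 were higher and 2 lower in Flt3+ GPs, with Card9 (0.79) and Ticam2 (0.62) higher and Ripk2 (-0.55) lower. In Flt3- GPs 11 were higher and 2 lower, with Traf1 (0.65), itself a described target of the pathway, and Card9 (0.54) higher and Ripk2 (-0.44) lower. The adaptors' shares were near those of all genes between wild-type populations (28% higher, 44.0% lower) and in Flt3+ GPs (20% and 8.0%), while 44.0% were higher and 8.0% lower in Flt3- GPs.

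Of 12 kinases and their partners, 4 were higher and 4 lower in wild-type Flt3+ than Flt3- GPs, with Map3k8 (1.99 log2), the kinase held by p105, and Map3k14 (0.87), the kinase of the non-canonical branch, higher and Ikbke (-1.07) lower. In Irf8KO Flt3+ GPs 3 were higher and 1 lower than in wild type, with Ikbke (0.47) and Ikbkg (0.31), the regulatory IKK subunit, higher and Tab2 (-0.24) lower. In Irf8KO Flt3- GPs 4 were higher and 3 lower, led by Map3k8 (0.94), Ikbke (0.74) and Map3k14 (0.63). Map3k8 and Map3k14 were the 2 kinases with a negative interaction, and Map3k7 and Chuk the 2 with a positive one. In a list of 12, where 1 gene is 8.33%, the shares were 33.3% higher and 33.3% lower between wild-type populations, 25.0% and 8.33% between genotypes in Flt3+ GPs, while in Flt3- GPs 33.3% were higher and 25.0% lower.

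Of 18 other inhibitors, 8 were higher and 7 lower in wild-type Flt3+ than Flt3- GPs. Zfp36, which destabilises cytokine mRNAs, was 6.36-fold higher (2.67 log2) and Tnip3, a partner of A20, 3.08-fold higher (1.62), and Irak3, an inhibitor of Toll-like receptor signalling, was 3.93-fold lower (-1.97). Between Irf8KO and wild type 2 were higher and 3 lower in Flt3+ GPs, with Zfp36 (-0.66), Tnip3 (-0.52) and Irak3 (-0.50) lower. In Flt3- GPs 7 were higher and 3 lower, with Zfp36 (0.94), Pdlim2 (0.81), a ligase for nuclear p65, and Tnfaip8l2 (0.70) higher. The shares of inhibitors were 44.4% higher and 38.9% lower between wild-type populations, 11.1% and 16.7% between genotypes in Flt3+ GPs, near those of all genes, and 38.9% and 16.7% in Flt3- GPs.

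Of 46 described target genes 43 were named on the array and 33 were tested, and 8, among them Il1b, Cxcl1 and Cxcl2, were not well above background on any array. In wild-type Flt3+ GPs 19 were higher and 8 lower than in Flt3- GPs. Ccr7, a chemokine receptor, was 28.6-fold higher (4.84 log2), although it was well above background on only 1 of 2 wild-type Flt3- arrays. The chemokines Ccl3 and Ccl4 were 18.6-fold (4.21) and 11.4-fold higher (3.51). In Flt3- GPs 15 targets were higher and 3 lower on arrays labelled Irf8KO, among them Ccl3 (1.69) and Ccl4 (1.21). Mmp9 was not well above background on either wild-type Flt3- array and above it on 1 of 2 Irf8KO Flt3- arrays. Its measured difference of 2.13 log2 (adjusted p = 0.000813 by limma) therefore rests on signals near background, and no lower bound of its size is given.

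In Flt3+ GPs 9 targets were higher and 9 lower on arrays labelled Irf8KO. The adhesion molecule Vcam1, not well above background on either array labelled Irf8KO, was at least 7.19-fold lower (adjusted p = 7.58e-06). Mmp9 and Ptgs2, not well above background on either wild-type Flt3+ array, were at least 1.49-fold (adjusted p = 0.00104) and 1.60-fold higher (0.00667). Of the 33 targets 3 had a positive and 10 a negative interaction, and the medians of the list were 0.47 log2 between wild-type populations, -0.04 between genotypes in Flt3+ GPs and 0.20 between genotypes in Flt3- GPs, where all genes had -0.12, 0.04 and -0.03. The shares of targets were 57.6% higher and 24.2% lower, 27.3% and 27.3%, and 45.5% and 9.09% in these comparisons, and 9.09% had a positive and 30.3% a negative interaction, against 21.4% and 9.46% of all genes. Such bounds set the brighter group against the lowest signal well above background on each dim array, or the probe's own signal where that was higher. The adjusted p-values beside the bounds belong to the measured differences and do not test the bounds.

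**Figure D4:**
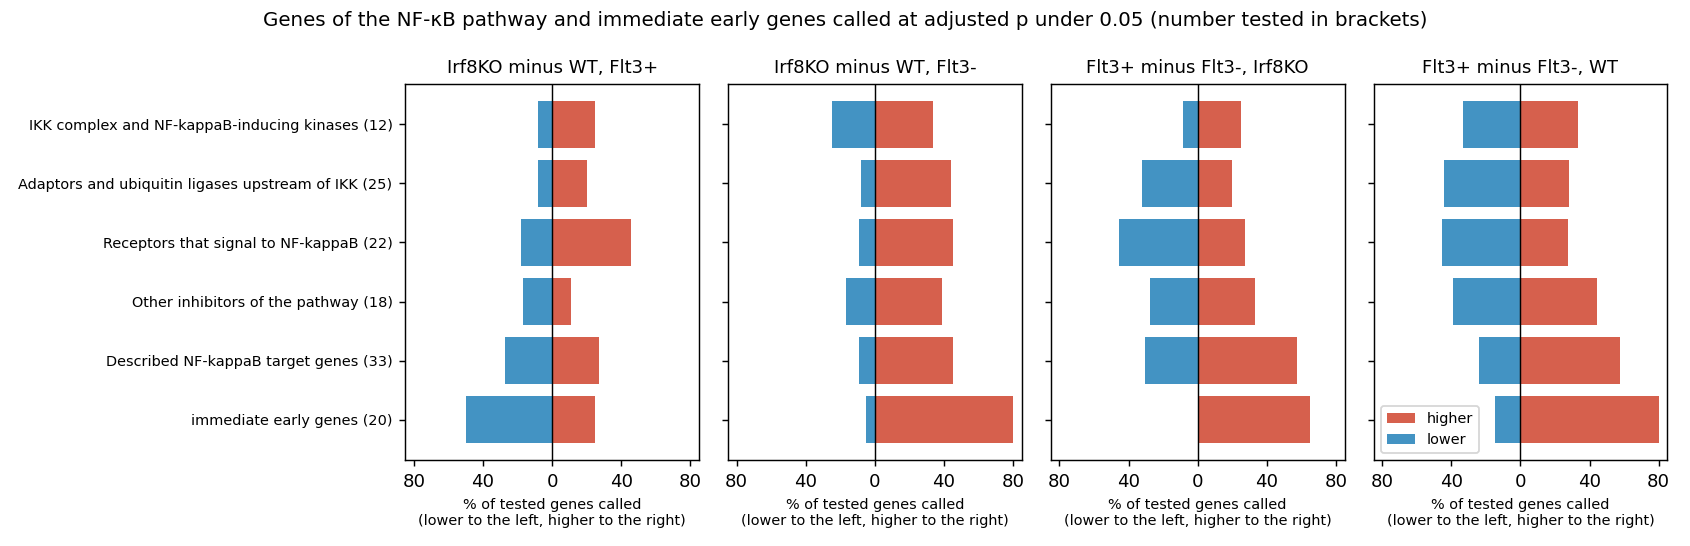
Share of the tested genes of each list that were called higher (right) or lower (left) at an adjusted p under 0.05 in the 4 comparisons, with the number of tested genes in brackets. Immediate early genes were called higher in 16 of 20 cases in wild-type Flt3+ against Flt3- GPs, and in 16 of 20 on arrays labelled Irf8KO in Flt3- GPs.

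Immediate early genes, which respond to handling as well as to signals, moved with several members. Of 20 tested, 16 were higher and 3 lower in wild-type Flt3+ than Flt3- GPs. Between Irf8KO and wild type 5 were higher and 10 lower in Flt3+ GPs, and 16 higher and 1 lower in Flt3- GPs. In GPs labelled Irf8KO 13 were higher and 0 lower in Flt3+ cells by limma, and 0 were lower at an unadjusted p under 0.05. Their interaction was positive for 2 and negative for 12. As shares, 80% were higher between wild-type populations and between genotypes in Flt3- GPs, against 22.6% and 16.5% of all genes, and 50% were lower between genotypes in Flt3+ GPs, against 12.5%. Their summed signal, in multiples of the 75th percentile, was 162 to 169 in Flt3+ and 109.6 to 109.9 in Flt3- GPs labelled Irf8KO, against 174 to 179.8 in wild-type Flt3+ and 81.3 to 81.8 in wild-type Flt3- GPs. The order of the groups was that of Nfkbiz and Relb. Egr3, Atf3 and Nr4a3 were not well above background on any array. Zfp36 stands in the list of immediate early genes and in that of other inhibitors.

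Of 12 heat shock genes 1 was higher and 10 lower in wild-type Flt3+ than Flt3- GPs, and 3 were higher and 3 lower in Flt3+ than Flt3- GPs labelled Irf8KO. On arrays labelled Irf8KO 5 were higher and 0 lower in Flt3+ GPs by limma (8 and 2 at an unadjusted p under 0.05), and 1 was higher and 5 lower in Flt3- GPs. Their interaction was positive for 7 and negative for 0 by limma (9 and 1 at an unadjusted p under 0.05). Summed, their signal was 1052 to 1059.9 in Flt3+ and 1071 to 1108 in Flt3- GPs labelled Irf8KO, against 860.5 to 934 in wild-type Flt3+ and 1144 to 1203 in wild-type Flt3- GPs. The part of immediate early and heat shock genes in the members' differences was not tested.

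Granulocyte progenitor markers, those of the labelled cells, differed between the groups as well. Of 12 tested, 1 was higher (Cd34) and 10 lower in wild-type Flt3+ than Flt3- GPs, with a median of -2.35 log2. Cebpe, a factor of granulocyte maturation, was lower (-5.97 log2), and so was Elane, the gene of neutrophil elastase (-4.68). In GPs labelled Irf8KO 1 was higher and 11 lower in Flt3+ cells. Between Irf8KO and wild type 9 were higher and 2 lower in Flt3+ GPs (median 0.72 log2) and 7 higher and 3 lower in Flt3- GPs (median 0.31). Their interaction was positive for 7 and negative for 1. The sum of their signals was 1403 to 1406 in Flt3+ and 2686 to 2927 in Flt3- GPs labelled Irf8KO, against 907 to 986 in wild-type Flt3+ and 2352 to 2493 in wild-type Flt3- GPs. The part of these markers in the members' differences was not tested.

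Markers of other cell types also differed between the groups. Of 9 tested dendritic cell markers 6 were higher and 0 lower in wild-type Flt3+ than Flt3- GPs (0 also at an unadjusted p under 0.05), and 2 were higher and 5 lower on arrays labelled Irf8KO in Flt3+ GPs. Their summed signal was 243 to 249.8 in Flt3+ and 243 to 259.7 in Flt3- GPs labelled Irf8KO, against 204 to 235 in wild-type Flt3+ and 203 to 217 in wild-type Flt3- GPs, and Xcr1 was not well above background anywhere. Siglech made up most of that sum, with 211 to 215 in Flt3+ and 224 to 240.4 in Flt3- GPs labelled Irf8KO, against 175 to 208 in wild-type Flt3+ and 182 to 197 in wild-type Flt3- GPs. The other dendritic cell markers summed to 32.2 to 35.0 in Flt3+ and 19.2 to 19.3 in Flt3- GPs labelled Irf8KO, against 27.2 to 28.2 in wild-type Flt3+ and 20.1 to 20.6 in wild-type Flt3- GPs. Between wild-type populations Siglech differed by 0.01 log2, while Ccr9 was higher by 4.98, Ccr7 by 4.84 and H2-Eb1, a class II antigen presentation gene, by 3.81 in Flt3+ GPs. Of 9 B cell markers 6 were higher and 0 lower in wild-type Flt3+ than Flt3- GPs (0 also at an unadjusted p under 0.05). Their summed signal was 20.8 to 21.4 in Flt3+ and 13.6 to 13.7 in Flt3- GPs labelled Irf8KO, against 14.7 to 15.5 in wild-type Flt3+ and 13.2 to 13.6 in wild-type Flt3- GPs. Cd79b made up most of that sum in every group. The other B cell markers summed to 9.28 to 9.46 in Flt3+ and 2.16 to 2.28 in Flt3- GPs labelled Irf8KO. In wild type these others summed to 3.74 to 4.01 in Flt3+ and 1.61 to 1.66 in Flt3- GPs. All 10 B cell markers were well above background on at least 1 array.

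Of 10 tested monocyte and macrophage markers 7 were higher and 1 lower on arrays labelled Irf8KO in Flt3+ GPs, and 7 higher and 2 lower in Flt3- GPs. Their summed signal was 143 to 147.5 in Flt3+ and 152.8 to 153.4 in Flt3- GPs labelled Irf8KO, against 82.5 to 85.6 in wild-type Flt3+ and 78.1 to 78.4 in wild-type Flt3- GPs. Of that sum F13a1 gave 87.9 to 89.5 in Flt3+ and 101.0 to 101.3 in Flt3- GPs labelled Irf8KO. In wild type F13a1 gave 30.1 to 32.0 in Flt3+ and 34.8 to 35.5 in Flt3- GPs. The other monocyte and macrophage markers summed to 54.8 to 58.0 in Flt3+ and 51.8 to 52.0 in Flt3- GPs labelled Irf8KO. In wild type these others summed to 52.4 to 53.6 in Flt3+ and 43.0 to 43.4 in Flt3- GPs. All 9 tested erythroid markers were lower on arrays labelled Irf8KO in both populations. Their summed signal was 2.08 to 2.14 in Flt3+ and 1.06 to 1.08 in Flt3- GPs labelled Irf8KO, against 47.4 to 47.6 in wild-type Flt3+ and 17.5 to 17.9 in wild-type Flt3- GPs.

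Of 10 eosinophil, basophil and mast cell markers 9 were lower and 0 higher in Flt3+ than Flt3- GPs of each genotype by limma (0 also at an unadjusted p under 0.05). On arrays labelled Irf8KO 1 was higher and 5 lower in Flt3+ GPs, and 0 higher and 8 lower in Flt3- GPs by limma (0 and 9 at an unadjusted p under 0.05). Summed, they gave 7.63 to 7.96 in Flt3+ and 73.8 to 73.9 in Flt3- GPs labelled Irf8KO, against 14.8 to 15.4 in wild-type Flt3+ and 146.9 to 147.2 in wild-type Flt3- GPs. The sum was highest in wild-type Flt3- GPs, the group lowest in Nfkbiz, Relb, Nfkbia, Nfkbie, Nfkb2 and Rela. Bcl3, Tnfaip3, Nfkb1 and Rel were lowest in other groups. The sum was lowest in Irf8KO Flt3+ GPs, the group highest in Nfkbia, Nfkb2 and Nfkb1. Nfkbiz, Relb, Nfkbie, Rela, Bcl3, Tnfaip3 and Rel were highest in wild-type Flt3+ GPs.

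Of 9 mature neutrophil markers 6 were higher and 0 lower on arrays labelled Irf8KO in each population by limma (0 lower also at an unadjusted p under 0.05), and 4 were higher and 1 lower in wild-type Flt3+ than Flt3- GPs. The sum of these signals was 233 to 238 in Flt3+ and 229 to 242 in Flt3- GPs labelled Irf8KO, against 215 to 233 in wild-type Flt3+ and 202 to 205 in wild-type Flt3- GPs. Csf3r made up most of it, with 163 to 203 across the arrays. The other mature neutrophil markers summed to 56.3 to 57.7 in Flt3+ and 38.9 to 39.0 in Flt3- GPs labelled Irf8KO. In wild type these others summed to 49.0 to 52.1 in Flt3+ and 33.2 to 34.4 in Flt3- GPs. Of 7 tested T cell and NK cell markers 3 were higher and 1 lower in wild-type Flt3+ than Flt3- GPs, and Cd8a lay near background on all 8 arrays. Their summed signal, mostly that of Nkg7, was 39.8 to 40.9 in Flt3+ and 98.4 to 100.4 in Flt3- GPs labelled Irf8KO, against 40.1 to 41.0 in wild-type Flt3+ and 104.5 to 105.7 in wild-type Flt3- GPs. Without Nkg7 the direction was the reverse. The other T cell and NK cell markers summed to 18.1 to 18.6 in Flt3+ and 10.9 to 11.7 in Flt3- GPs labelled Irf8KO. In wild type these others summed to 18.8 to 19.5 in Flt3+ and 10.3 to 10.5 in Flt3- GPs. The part of all these cells in the members' differences was not tested.

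Genes whose pattern was most like that of a member were sought for Nfkbiz and Relb, the 2 members whose group means spanned at least 1 log2. Likeness was the root mean square difference over the 8 arrays after each gene was centred on its own mean, among 14090 other genes. Zfp36 was closest to Nfkbiz (0.106 log2), followed by Ahnak, a large scaffold protein (0.156), and Gprc5b, an orphan receptor (0.182). The group means of Zfp36 were -0.06 in Flt3+ and -1.13 in Flt3- GPs labelled Irf8KO, against 0.60 in wild-type Flt3+ and -2.07 in wild-type Flt3- GPs. Closest to Relb were Kbtbd11 (0.0806), Rab6b, a small GTPase (0.0843), and Sema4g, a semaphorin (0.108). The group means of Kbtbd11 were 2.93 in Flt3+ and 1.88 in Flt3- GPs labelled Irf8KO, against 3.16 in wild-type Flt3+ and 1.22 in wild-type Flt3- GPs.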

How the data were processed

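The group and experiment of each sample come from its title. Per the labels' protocols, total RNA was purified on micro columns (RNeasy) and amplified with an Agilent low-input kit. Agilent Feature Extraction 10.7.3.1 (protocol GE1_107_Sep09) made the spot values, per the file headers. They are linear intensity values as deposited, without scaling between arrays, and the deposited spot flags are a score of 0 or 1. The authors' deposited series table was an alternative only. Judged from its values, it equals the processed intensity multiplied by an array's own factor (0.672 to 1.33), linear and not centred, with column medians of 26.9 to 29.9. The submitters' steps behind it are not stated in any source used here.

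Control spots and 93 to 178 outlier spots per array were left out and the spots of a probe averaged. From log2 intensity the log2 of the array's 75th percentile was subtracted. Probes had to be well above background on the 2 arrays of any 1 group. For the 5405 genes with several probes, the brightest over the 8 arrays was used. The limma fit (3.58.1, R 4.3.3) estimated the 4 group means together, with 4 residual and 1.767 prior degrees of freedom. Benjamini-Hochberg adjustment ran over 14104 genes in each of 5 comparisons, and a call needed an adjusted p under 0.05. The fit was tested on simulated data.

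Members and lists were chosen with earlier results of these data known. All members are named, and of each pathway list up to 3 called genes with the largest difference in each of 3 comparisons, except genes that are not reported here. The numbers of the experiments were not taken as pairs, since same-numbered arrays did not deviate together (correlations of deviations across genes of -0.027 to 0.126). Alternatives were quantile normalization, normexp with an offset of 50 on median spot and background intensities, filters on all or none of the arrays, the mean of a gene's probes, only the compared groups, a replicate block, the series table and leaving out each array.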

Additional observations from a re-analysis of the deposited data

Results flagged for a closer look

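In 6 members the difference between genotypes was not the same in both populations by the interaction test of limma. The value is the log2 difference of Irf8KO minus wild type in Flt3+ GPs minus that in Flt3- GPs. It was -1.68 for Nfkbiz (adjusted p = 0.000653), which was lower on arrays labelled Irf8KO in Flt3+ GPs (-0.70) and higher in Flt3- GPs (0.98). It was -1.03 for Relb (adjusted p = 0.00435), with -0.26 in Flt3+ GPs, which was not called, and 0.77 in Flt3- GPs. It was -0.70 for Bcl3 (adjusted p = 0.00213), with -0.77 in Flt3+ GPs and -0.06, not called, in Flt3- GPs. For Nfkbie it was -0.42 (adjusted p = 0.0191), for Nfkbia -0.26 (adjusted p = 0.0168) and for Nfkb2 -0.25 (adjusted p = 0.0277). The values of Nfkbiz, Relb and Bcl3 passed under all 15 alternatives run, and those of Nfkbie, Nfkbia and Nfkb2 under 10, 9 and 7 of 15. Slide row and column follow genotype and population, and their part in these values cannot be told apart.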

How the results depend on the processing

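Of 50 member results 25 were called. Under the alternatives run 18 kept their call throughout, 7 lost it under at least 1 and 0 changed sign; of the 25 not called 6 passed under at least 1. The 7 were Nfkbia in 3 comparisons, Nfkbie in 2, and Rela and Nfkb2 in 1 each. Without a filter on dim probes, when 20284 genes were tested, 3 members in place of 6 passed in the interaction, and leaving out each array gave 3 to 6. All genes called between genotypes in Flt3+ GPs numbered 4092, against 2679 without the filter, 2676 with the compared groups alone and 2002 to 3679 leaving out each array. In Flt3- GPs they numbered 6159, and 4063 to 6443 leaving out each array. In the interaction they numbered 4357, against 2725 without the filter and 2515 to 4417 leaving out each array.

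Results that changed sign were all not called, 9 in all. Rel gave 0.021 with quantile normalization and 0.19 with normexp between genotypes in Flt3+ GPs, 0.15 with normexp in Flt3- GPs, and -0.091 and -0.13 with normexp between Irf8KO and between wild-type populations. With normexp in Flt3- GPs Nfkb1 gave -0.017 and Rela -0.000398 between genotypes. Leaving out each array, Rel ran from -0.50 to 0.42 between genotypes in Flt3+ GPs, from -0.48 to 0.14 in Flt3- GPs and from -0.33 to 0.59 in the interaction. Rela ran from -0.063 to 0.00325 between genotypes in Flt3+ GPs, and Nfkb1 from -0.055 to 0.12 between genotypes in Flt3- GPs and from -0.047 to 0.13 between Irf8KO populations. With the experiment number as a replicate block, Nfkbie between genotypes in Flt3- GPs had an adjusted p of 0.0631, and no other member call changed. The causes were not tested. A signal near background limits Rel. Isoforms were not told apart.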
